A study of Mus musculus with 15 samples.

Results

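Tripartite motif (TRIM) proteins are a large family of mostly RING-type ubiquitin ligases, and many of its members act in antiviral defense. The 10 genes described here, Trim12a, Trim12c, Trim14, Trim21, Trim25, Trim26, Trim30a, Trim30d, Trim34a and Trim56, were chosen by name as antiviral members of that family. Earlier results of these data were known when they were chosen. All 10 were found in the deposited table, and all 10 were among the 15494 genes that passed the filter on low counts, of 32543 genes in the table. They were followed in 15 tumors of the mouse fibrosarcoma line WEHI-164, which grew under the skin of wild-type (WT), young adult female BALB/c mice. Untreated tumors were taken on day 0. The other tumors received intratumoral injections of poly(I:C), a synthetic double-stranded RNA, and were taken on day 1, 3, 5 or 7, with 3 tumors on each of the 5 days. The study describes vehicle-treated tumors in its time course, but none is among these 15. Tumor age, injection and poly(I:C) therefore differ together between day 0 and the later days, and cannot be told apart. The labels give 1 µg of poly(I:C) in 25 µL daily, for 6 planned doses. A legend in the supplement of the study names a higher daily dose, so the dose is uncertain. All tumors came from 1 cell line, and the labels describe each as a separate sample without naming the mouse. The p-values therefore measure the spread between these tumors.

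Double-stranded RNA is read inside cells by the helicases RIG-I and MDA5, which signal through the adaptor MAVS, and in endosomes by Toll-like receptor 3. Both routes activate the kinase TBK1 and the transcription factors IRF3 and IRF7 and lead to type I interferon. Several TRIM proteins attach ubiquitin to the sensors, adaptors or kinases of these routes, and many TRIM genes are themselves switched on by interferon through the interferon-stimulated response element (ISRE) in their promoters.

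Depth was 23.7 to 31.9 mega-counts per tumor. A level is given as CPM, the estimated count per mega-count of library after scaling of the libraries by the trimmed mean of M-values (TMM). The most that a gene with no count could have had by counting error alone, 3 counts, was worth 0.094 to 0.126 CPM. The fibroblast markers of the WEHI-164 line were present in all tumors, 8 of 8, at a summed 9630 to 32700 CPM. A pair of tumors stood apart. Day 3 replicate 1 lay at 144 on the first principal component, against −77.0 to 45.1 for the other tumors, and its summed skeletal muscle markers reached 2530 CPM against 2.47 to 157 CPM elsewhere. Day 1 replicate 3 had the highest level of 8 of the 10 TRIM genes on that day. Values that moved by over 1.5 times without either tumor are given with and without it.

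Of the 10 genes, 5 lie together in a run of 11 related TRIM genes on chromosome 7 (GRCm38, chr7:104218793-104535361, 316.6 kb, GENCODE M21). In order along it are Trim6, Trim34a, Trim5, Trim12a, Trim34b, Trim12c, Trim30b, Trim30c, Trim30a, Trim30d and the pseudogene Trim30e-ps1. All 10 genes are annotated as protein-coding. Within the run, Trim34a covers chr7:104244457-104262234 on the plus strand. On the minus strand are Trim12a (chr7:104299894-104315466), Trim12c (chr7:104338754-104353362), Trim30a (chr7:104409025-104465193) and Trim30d (chr7:104470014-104507849). Trim21 lies elsewhere on the same chromosome (chr7:102557921-102565486, minus strand). The other genes are Trim14 (chr4:46493781-46536141, minus), Trim25 (chr11:88999376-89020293, plus), Trim26 (chr17:36837134-36859398, plus) and Trim56 (chr5:137105644-137116209, minus).

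The promoters were searched for the core of the ISRE, GAAA, 2 bases of any kind and GAAA again, on either strand. The window ran from 250 bases before to 50 bases after each annotated start (RefSeq, GRCm38.p6). Of the 9 genes with such a window, 7 held the core: Trim12a, Trim12c, Trim21, Trim26, Trim30a, Trim30d and Trim34a. Trim25 and Trim56 did not hold these letters in their windows, and Trim14 had no entry. Over all 27025 genes with a window the core was in 3.99%, and of 44 other TRIM genes with a window it was in 2, Trim2 and Trim5. A match is a description of the letters and not of binding. Of the 7 genes with the core, all but Trim12a had higher fitted levels on day 3 than in untreated tumors. So did genes without it in their windows, namely Trim25 and, in the chromosome 7 run, Trim6, Trim30b, Trim30c and Trim34b. Trim56, also without it, did not. Whether the core goes with the changes was not tested. The 60 bases around each core are shown so that the core and the letters beside it can be compared between the genes. They read 5′ to 3′ on the strand of the gene, and the capitals mark the core, which reads TTTC, 2 bases and TTTC where it lies on the other strand.

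Trim12a, chr7:104315466-104315525, minus strand: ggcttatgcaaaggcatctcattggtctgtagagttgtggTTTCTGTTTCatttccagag
Trim12c, chr7:104353344-104353403, minus strand: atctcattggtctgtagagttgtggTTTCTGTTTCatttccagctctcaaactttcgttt
Trim30a, chr7:104465195-104465254, minus strand: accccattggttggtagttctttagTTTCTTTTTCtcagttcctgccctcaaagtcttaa
Trim30d, chr7:104507856-104507915, minus strand: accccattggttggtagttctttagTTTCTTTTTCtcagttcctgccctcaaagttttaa
Trim34a, chr7:104244427-104244486, plus strand: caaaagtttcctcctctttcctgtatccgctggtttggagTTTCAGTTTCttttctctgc
Trim21, chr7:102565453-102565512, minus strand: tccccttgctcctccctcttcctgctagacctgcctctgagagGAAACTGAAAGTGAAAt
Trim26, chr17:36836961-36837020, plus strand: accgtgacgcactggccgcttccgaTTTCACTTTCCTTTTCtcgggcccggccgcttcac

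The first base of the core was 29 bases before the start in Trim12c, 36 before in Trim30a and 41 before in Trim30d. It lay 10 bases after the start in both Trim12a and Trim34a. Trim21 and Trim26 each held a pair of overlapping cores, in Trim21 from 13 and 19 bases after the start and in Trim26 from 160 and 154 bases before it. The windows of Trim30a and Trim30d shared a run of 118 identical bases, and their printed stretches were equal at 59 of 60 bases. The windows of Trim12a and Trim12c shared a run of 71 identical bases outside the core, and the core has the same letters in both. Matches within such a pair are not independent of each other.

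Within the chromosome 7 run the genes resemble each other in sequence, and the counting of reads divides any read that matches several of them. The share of 31-base words of the transcripts of a gene that also occur in another gene was 68.5% for Trim34a, and 48.7% of its words were in Trim34b. It was 48.1% for Trim12c (38.7% in Trim5), 16.0% for Trim12a, and 11.9% for both Trim30a and Trim30d. Trim14 shared 36.4%, mostly with its neighbor Nans (30.4%). Trim21, Trim25, Trim26 and Trim56 shared between 0.628% and 2.31%. The split between Trim34a and Trim34b, between Trim12c and Trim5, and between Trim14 and Nans is therefore uncertain. Counts equal to another gene's in all 15 tumors were found for 0 of the 10.

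Trim30a, an interferon-inducible TRIM known to restrain NF-κB signaling through the TAB2 and TAB3 adaptors, had 51.4, 61.6 and 52.5 CPM in the untreated tumors. It had 82.0, 82.4 and 209 CPM on day 1 and 176, 163 and 114 CPM on day 3. It then had 97.5, 98.1 and 65.2 CPM on day 5 and 50.7, 69.3 and 48.4 CPM on day 7. Every tumor of days 1, 3 and 5 lay above every untreated tumor, and the day 7 tumors overlapped the untreated ones. The fold against day 0 was 2.25 on day 1 (log2 1.17 ± 0.329, SE) and 2.73 on day 3 (1.45 ± 0.332). The edgeR adjusted p was 0.926 on day 1 and 0.115 on day 3, so neither difference passed the threshold of 0.05. Without day 1 replicate 3, which held 209 CPM, the day 1 log2 fold change was 0.58. Without day 3 replicate 1 the day 3 value was 1.33.

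Trim30d, its neighbor in the run, had 7.01, 9.27 and 9.28 CPM on day 0, 11.2, 12.5 and 37.1 CPM on day 1 and 25.0, 32.2 and 19.1 CPM on day 3. On day 5 it had 16.8, 16.3 and 8.33 CPM, and on day 7 it had 6.34, 11.3 and 5.14 CPM. The day 1 and day 3 tumors all stood above the untreated tumors, while day 5 replicate 3 lay within their range and the day 7 tumors spread to both sides of it. This gene had the largest fold of the 10 on both days, 2.38 on day 1 (log2 1.25 ± 0.456) and 2.98 on day 3 (1.58 ± 0.459). Its edgeR adjusted p was 1 on day 1 and 0.115 on day 3. Without day 1 replicate 3 its day 1 log2 value was 0.48, below the 0.58 of Trim30a, so the order of these neighbors on that day rests on 1 tumor. The day 3 value was 1.60 without day 3 replicate 1. The log2 ratio of Trim30d to Trim30a within a tumor stayed between −3.22 and −2.33 in all 15 tumors.

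Trim12c belongs to the mouse counterparts of human TRIM5, the capsid-binding restriction factor. Its levels were 27.3, 38.3 and 34.3 CPM on day 0, 37.9, 48.0 and 65 CPM on day 1 and 92.3, 57.1 and 52.6 CPM on day 3. They were 58.1, 44.8 and 31.7 CPM on day 5 and 30.7, 34.1 and 23.7 CPM on day 7. The day 3 tumors all exceeded the untreated ones, with day 3 replicate 1 the highest of the 15 tumors, and the other days overlapped day 0. The fold was 1.51 on day 1 (log2 0.60 ± 0.275) and 2.02 on day 3 (1.02 ± 0.276, edgeR adjusted p = 0.115). The log2 value was 0.37 on day 1 without day 1 replicate 3, and 0.72 on day 3 without day 3 replicate 1.

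Trim12a, its close relative in the same run, had no rise on day 3 in its fitted value. It was the lowest of the 10 genes, with 25 to 74 counts per tumor. Its levels were 1.72, 2.01 and 2.84 CPM on day 0, 1.60, 2.95 and 2.07 CPM on day 1 and 1.01, 2.50 and 1.83 CPM on day 3. The groups overlapped on both days, as they did on days 5 (1.69 ± 0.177 CPM, SD, n = 3) and 7 (2.10 ± 0.114 CPM). The day 3 log2 fold change was −0.30 ± 0.333, with a 95% interval from −1.02 to 0.42 and an edgeR adjusted p of 0.52. That log2 fold change was −0.01 without day 3 replicate 1. Summing the counts of Trim12a and Trim12c gave 0.96 on day 3, since Trim12c supplies nearly all of the sum. The log2 ratio of Trim12c to Trim12a was 3.90 ± 0.322 in untreated tumors, reached 5.23 ± 1.04 on day 3 and stood at 3.75 ± 0.196 on day 7. Its differences over the 5 days gave an exact permutation p of 0.0521 (all 1401400 divisions of the tumors, adjusted p = 0.195 over the 4 ratios computed after the data were seen). A difference in course between Trim12a and Trim12c was therefore not established.

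Trim34a, a further relative of TRIM5, stood at 5.12, 6.36 and 5.76 CPM in the untreated tumors. It was at 6.85, 7.50 and 14.3 CPM on day 1, and at 11.7, 10.3 and 9.18 CPM on day 3. By day 5 it was back at 6.81, 5.48 and 5.49 CPM, and on day 7 at 5.12, 5.59 and 4.47 CPM. The tumors of days 1 and 3 did not overlap the untreated tumors, and those of days 5 and 7 did. The log2 fold change was 0.73 ± 0.251 on day 1 and 0.85 ± 0.251 on day 3 (edgeR adjusted p = 1 and 0.115). The day 1 value was 0.32 without day 1 replicate 3.

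The genes of the run that are not among the 10 are its remaining paralogs. Trim30c stood at 1.17 ± 0.173 CPM on day 0, 3.61 ± 3.33 CPM on day 1 and 4.57 ± 1.66 CPM on day 3. The day 1 mean came largely from day 1 replicate 3, at 7.45 CPM against 1.90 and 1.48 CPM, and the day 1 log2 fold change of 1.62 ± 0.542 was 0.53 without it. The day 3 log2 fold change was 1.96 ± 0.546 for Trim30c, 1.10 ± 0.347 for Trim34b, 0.93 ± 0.573 for Trim30b, 0.87 ± 0.631 for Trim5 and 0.47 ± 0.197 for Trim6. None passed the threshold (edgeR adjusted p = 0.115, 0.115, 0.261, 0.328 and 0.145). Trim5 was counted at 0.0668 to 0.878 CPM only, and Trim30e-ps1, with 0 to 11 counts, was not tested. Trim12b was not analysed here. Of the 10 tested genes of the run, Trim12a alone had a negative day 3 value.

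**Figure D1:**
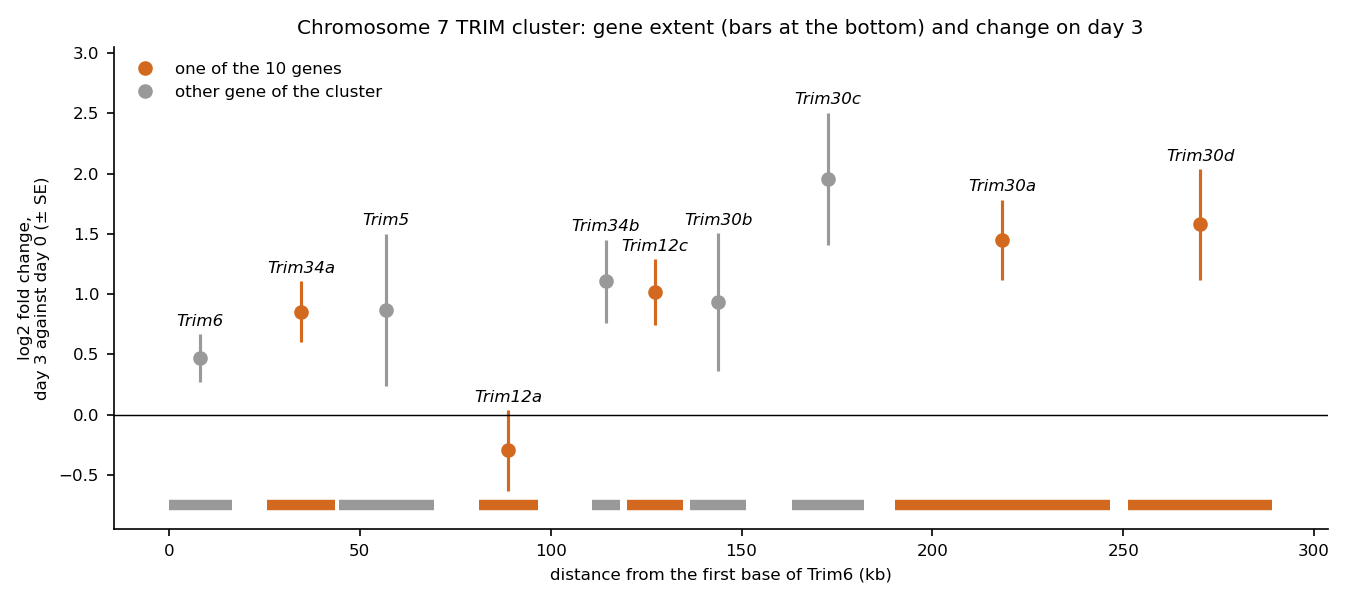
The horizontal axis gives the distance in kb from the first base of Trim6 along the chromosome 7 run, and the vertical axis gives the day 3 log2 fold change against day 0 with its standard error. Horizontal bars span each gene, orange for the 5 genes described here and grey for the others. Trim12a, at −0.30, is the only point below 0, and Trim30c has the highest value, 1.96.

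Trim25 is a ligase reported to add ubiquitin chains to RIG-I, and it also joins ISG15 to proteins. Its levels were 175, 157 and 162 CPM on day 0, 222, 210 and 319 CPM on day 1 and 188, 270 and 218 CPM on day 3. On day 5 they were 170, 216 and 172 CPM, and on day 7 they were 141, 190 and 190 CPM. Each day 1 and day 3 tumor stood above every untreated tumor, and the later days overlapped them. Its day 1 fold of 1.52 was above its day 3 fold of 1.37 (log2 0.60 ± 0.186 and 0.45 ± 0.186), but the day 3 minus day 1 difference was −0.15 ± 0.186 (edgeR unadjusted p = 0.437) and became 0.07 without day 1 replicate 3. Its day 1 log2 value against untreated tumors was 0.39 without that tumor. The edgeR adjusted p was 1 on day 1 and 0.141 on day 3.

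Trim21 is a cytosolic antibody receptor that sends antibody-coated virus to the proteasome. It had 25.9, 29.4 and 26.3 CPM on day 0, 33.9, 35.0 and 55.0 CPM on day 1 and 52.4, 46.8 and 43.3 CPM on day 3. It had 42.3, 41.0 and 26.4 CPM on day 5 and 24.6, 29.8 and 22.4 CPM on day 7. The tumors of days 1 and 3 were all above the untreated ones, and day 5 replicate 3 was back in their range. The fold was 1.52 on day 1 and 1.75 on day 3 (log2 0.60 ± 0.209 and 0.80 ± 0.209, edgeR adjusted p = 1 and 0.115). Without the tumors that stood apart the values were 0.34 on day 1 and 0.73 on day 3.

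Trim14 lacks the RING domain of most TRIM proteins and serves as an adaptor at MAVS. Its levels were 11.4, 13.1 and 12.3 CPM on day 0, 17.5, 15.1 and 25.7 CPM on day 1 and 23.1, 20.7 and 20.8 CPM on day 3. They were 14.1, 17.7 and 13.6 CPM on day 5 and 14.5, 15 and 14.7 CPM on day 7. It was the only gene of the 10 whose tumors stood above every untreated tumor on all 4 treated days. On days 5 and 7 that gap was small, with log2 fold changes of 0.30 ± 0.175 and 0.26 ± 0.175. The fold was 1.58 on day 1 and 1.76 on day 3 (log2 0.66 ± 0.175 and 0.81 ± 0.175, edgeR adjusted p = 0.836 and 0.115). The day 1 log2 value was 0.41 without day 1 replicate 3. Its day 3 unadjusted p was the smallest of the 10, at 0.0005 in edgeR. The split of its reads from those of Nans, whose level is not given here, is uncertain.

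Trim26, a ligase reported to act on IRF3 and TBK1, moved within a narrower range. Its levels were 67.6, 64.9 and 64.1 CPM on day 0, 70.8, 72.8 and 89.3 CPM on day 1 and 110, 90.8 and 78.2 CPM on day 3. They were 77.2, 74.5 and 57.2 CPM on day 5 and 50.3, 65.4 and 56.2 CPM on day 7. The day 1 and day 3 tumors all lay above the untreated ones, and the day 7 tumors were lower or overlapped. The fold was 1.18 on day 1 and 1.42 on day 3 (log2 0.24 ± 0.153 and 0.51 ± 0.153, edgeR adjusted p = 1 and 0.115). The day 1 value was 0.13 without day 1 replicate 3, and the day 3 value was 0.37 without day 3 replicate 1.

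Trim56, a ligase reported to act with STING and with the TLR3 adaptor TRIF, had no rise in its fitted values. Its levels were 147, 143 and 150 CPM on day 0, 166, 153 and 117 CPM on day 1 and 89.4, 127 and 154 CPM on day 3. They were 101, 120 and 121 CPM on day 5 and 123, 135 and 140 CPM on day 7. The lowest day 1 and day 3 tumors were the 2 tumors that stood apart, and the tumors of both days overlapped the untreated ones, while all tumors of days 5 and 7 lay below them. The log2 fold change was −0.01 on day 1 and −0.25 on day 3, then −0.37 on day 5 and −0.15 on day 7, each with an SE of 0.175. The edgeR adjusted p was 0.317 on day 3. The day 1 value was 0.12 without day 1 replicate 3, and the day 3 value was −0.06 without day 3 replicate 1.

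**Figure D2:**
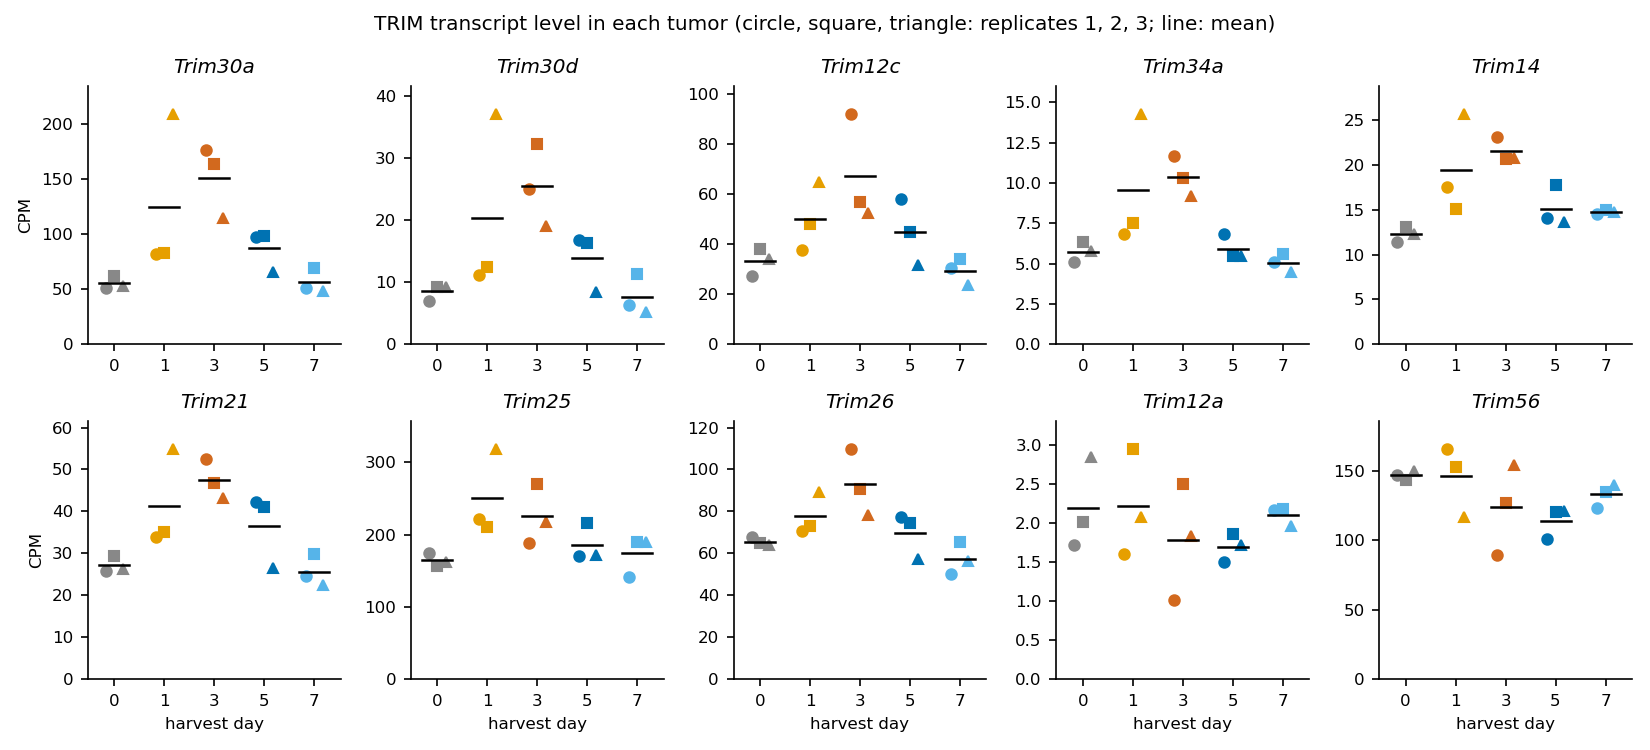
Each panel shows 1 gene, with harvest day on the horizontal axis and CPM on the vertical axis. Circles, squares and triangles are replicates 1, 2 and 3, and each bar is the mean of the 3 tumors of that day. In 8 panels the day 3 tumors lie above all untreated tumors, in the Trim12a and Trim56 panels they do not, and day 1 replicate 3 stands highest on its day in the panels of those 8 genes.

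The list was chosen with earlier results of these data known, so its counts beside those of all genes are descriptions. Taking the 10 genes as a list, 9 were higher on day 1 than in untreated tumors by the fitted fold change, where 49.9% of all genes tested were. Their median log2 fold change was 0.60, against −0.00 for all genes tested. In 7 genes every day 1 tumor was above every untreated tumor, where 5.76% of all genes tested were. Without day 1 replicate 3 the count was 8 against 11.1% of all genes, because Trim56 then joined it, and the median log2 fold change was 0.36. At an unadjusted p under 0.05 in edgeR, 6 genes were higher, against 2.18% of all genes tested. None of the 10 genes was called at an adjusted p under 0.05 by edgeR, nor was any of the 489 genes at an unadjusted p under 0.05. DESeq2 called 40 of all genes and none of the 10.

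On day 3, 8 of the 10 genes were higher by the fitted fold change (48% of all genes), and their median was 0.81 against −0.02 for all genes tested. The 8 genes were also higher at an unadjusted p under 0.05, where 18.3% of all genes were. In the same 8 genes, all but Trim12a and Trim56, the tumors did not overlap (19.4% of all genes). That count was also 8 without day 3 replicate 1, when the share of all genes was 23.2%. By edgeR 0 genes of the table were called at an adjusted p under 0.05, although 4654 had an unadjusted p under 0.05. By DESeq2 7 of the 10 genes were called as higher, all of those 8 but Trim25, where 9.43% of all genes were. The DESeq2 adjusted p was 0.00529 for Trim14 and Trim30a, 0.0157 for Trim21, 0.0171 for Trim12c, 0.018 for Trim30d, 0.0241 for Trim34a and 0.0306 for Trim26. Trim25 had 0.074. Those DESeq2 calls depended on single tumors, with 1 gene called without day 3 replicate 1 and 0 called without day 0 replicate 1. Without day 0 replicate 2 the count was 4, and without day 0 replicate 3 it was 2. The shares of all genes called in these settings are not given here. The loss of calls therefore cannot be told from a loss over the whole table.

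The comparisons with day 0 share the same 3 untreated tumors and are not independent of each other. Day 3 against day 1 gave a median log2 difference of 0.17 for the 10 genes, and in none did the tumors of the days separate (they did in 14.3% of all genes). Without day 1 replicate 3 that median was 0.44, and in 7 genes every day 3 tumor was above both remaining day 1 tumors, against 24.1% of all genes.

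**Figure D3:**
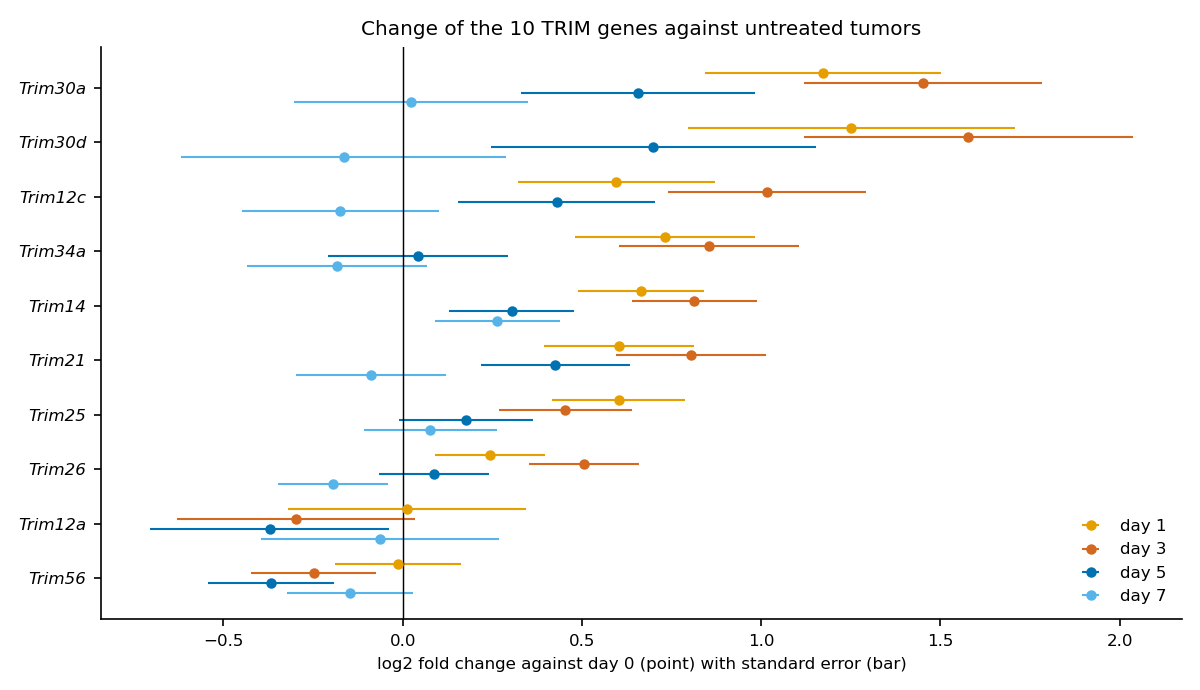
Points give the log2 fold change of each of the 10 genes on days 1, 3, 5 and 7 against day 0, and bars give the standard error. The values of Trim30d reach 1.58 on day 3 and return to −0.16 on day 7, while those of Trim56 lie at or below 0 on all 4 days.

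After day 3 the levels were lower again. From day 3 to day 5 all 10 genes had lower fitted levels (50.4% of all genes), with a median log2 difference of −0.46. In 6 genes every day 5 tumor was below every day 3 tumor (Trim14, Trim21, Trim26, Trim30a, Trim30d and Trim34a), where 4.83% of all genes were. At an unadjusted p under 0.05 in edgeR 4 of them were lower, against 5.24% of all genes, and none was called after adjustment. The largest of these 4 differences were those of Trim34a, at −0.81 ± 0.251, and Trim30a, at −0.80 ± 0.327. From day 5 to day 7 the median difference was −0.25, and Trim12c and Trim21 were lower at an unadjusted p under 0.05 (1.94% of all genes). Trim12a and Trim56 stood higher on day 7 than on day 5 in all tumors, as 4.08% of all genes did.

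Between day 3 and day 7 the difference was −1.74 ± 0.462 on the log2 scale for Trim30d, −1.43 ± 0.331 for Trim30a, −1.19 ± 0.278 for Trim12c and −1.04 ± 0.253 for Trim34a. It was −0.89 ± 0.21 for Trim21, −0.70 ± 0.154 for Trim26, −0.55 ± 0.174 for Trim14 and −0.38 ± 0.186 for Trim25. Trim12a and Trim56 had values of 0.24 ± 0.333 and 0.10 ± 0.175, or −0.04 and −0.08 without day 3 replicate 1. In 7 genes every day 7 tumor was below every day 3 tumor (18.4% of all genes), and the same 7 were lower at an unadjusted p under 0.05 (22.6%). Their edgeR adjusted p was 0.0832 to 0.0834, short of the threshold, while 5502 genes of the table had an unadjusted p under 0.05. DESeq2 called all 7 as lower (15.4% of all genes), but 1 without day 3 replicate 1 and 0 without day 7 replicate 1 or day 7 replicate 3. The shares of all genes called without those tumors are not given here.

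On day 7 the tumors of 8 of the 10 genes overlapped the untreated tumors. The median log2 fold change against day 0 was −0.12, 3 genes were higher (44.5% of all genes) and 7 lower (55.5%), and none of the 10 had an unadjusted p under 0.05 in edgeR (2.07% of all genes). The tumors separated from the untreated ones in Trim14 (higher, as 5.02% of all genes) and in Trim56 (lower, as 6.26%). On day 5 the median was 0.24. The tumors of Trim14 and Trim30a were all higher (6.89% of all genes) and those of Trim56 all lower (10.9%), again with 0 genes at an unadjusted p under 0.05, where 1.41% of all genes were higher and 3.39% lower. In the joint test of the 4 treated days, 8 of the 10 genes had an unadjusted p under 0.05, against 16.2% of all genes, from 0.00184 for Trim30a to 0.0288 for Trim25. The edgeR adjusted p was 0.292 for all 8, 0.496 for Trim56 and 0.806 for Trim12a. DESeq2 called 7 of the 10 genes in its joint test (7.63% of all genes).

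Levels of different genes were compared per kb of all annotated exons of a gene joined, which can exceed the length of its transcripts. The order is therefore approximate, also because the reads of Trim12c, Trim34a and Trim14 are partly shared with other genes. In untreated tumors, Trim25 was the most abundant, at 28.6 ± 1.67 CPM per kb of exon (SD, n = 3), followed by Trim56 (15.8 ± 0.397) and Trim30a (13.4 ± 1.36). Trim26 (9.54 ± 0.265), Trim12c (8.91 ± 1.48) and Trim21 (7.33 ± 0.515) came next. Tumors of Trim26 and Trim12c, and of Trim12c and Trim21, overlapped in this order. Trim14 (2.83 ± 0.197), Trim30d (2.27 ± 0.348) and Trim34a (2.22 ± 0.24) were lower, with Trim30d and Trim34a overlapping, and Trim12a was lowest at 0.379 ± 0.101 CPM per kb. On day 3, Trim30a stood second at 36.7 ± 7.84 CPM per kb, with its tumors overlapping those of Trim25 at 39.2 ± 7.21. The mean of Trim56 was then 13.3 ± 3.51, under that of Trim12c and next to that of Trim26 (13.6). The log2 ratio of Trim25 to Trim56 within a tumor was 0.16 ± 0.0808 in untreated tumors, 0.77 ± 0.586 on day 1 and 0.89 ± 0.338 on day 3, but its difference over the days gave an exact permutation p of 0.0973 (adjusted p = 0.195).

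Over the 15 tumors the log2 CPM of 8 genes (all but Trim12a and Trim56) moved together. The 28 pairs had Pearson r from 0.488 to 0.974, with a median of 0.887. These points are tumors of 5 days, so the values hold the course over days as well as the spread between tumors, and the 8 genes were picked out after their values were seen. The pairs with the highest r were Trim30a with Trim30d and Trim30a with Trim21, at 0.974, and the lowest was Trim12c with Trim25. Trim12a had r from −0.381 to 0.101 with the 8 genes and Trim56 from −0.581 to 0.010, while Trim12a and Trim56 had r = 0.582 with each other.

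The genes most like each member were sought among all tested genes by the same measure over the 15 tumors. For Trim30a they were Slfn8 (r = 0.994), H2-T24 (0.990) and Ly6e (0.989), and for Trim30d they were PYHIN1 (0.986), H2-T24 (0.981) and Ly6c2 (0.98). Trim21 was closest to Ifi44l (0.981), H2-T24 (0.981) and Uba7 (0.98). Trim25 was closest to Adar (0.963), Helz2 (0.956) and Rsad2 (0.952). For Trim14 they were Oas1c (0.959), Irf7 (0.949) and Oas1g (0.941). Trim12c was closest to Tnfsf10 (0.977), H2-M3 (0.977) and Sp140 (0.976), and Trim34a to Mndal (0.963), C2 (0.956) and MNDA (0.946). Adar, Rsad2, Ifi44l and the Oas1 genes are known interferon-induced genes. Other kinds of gene came first for Trim26 (Ncstn, Pigs and Ap5z1, r = 0.956 to 0.971), Trim56 (Ino80, Trrap and Mtor, 0.931 to 0.939) and Trim12a (Zfp408, Pfdn6 and Rnaseh2c, 0.816 to 0.827).

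The table held 59 other TRIM genes, of which 44 were tested. On day 1 their median log2 fold change was −0.02 and 3 were higher at an unadjusted p under 0.05 in edgeR (2.18% of all genes). On day 3 it was −0.08, with 11 higher and 6 lower at that level, where 18.3% of all genes were higher and 1819 of 15494 were lower. None was called by edgeR after adjustment on either day. DESeq2 called 0 on day 1 (0.259% of all genes) and 3 on day 3, all of them higher (9.43% of all genes were). In the joint test 10 of the 44 had an unadjusted p under 0.05 (16.2% of all genes). The smallest were those of Trim30c, described above, and of Trim63 and Trim72, which encode muscle ligases. Trim72 had 22.7, 3.71 and 1.87 CPM in the day 3 tumors and Trim63 had 8.33, 1.54 and 0.895 CPM, in both cases highest in day 3 replicate 1, the tumor with 2530 CPM of skeletal muscle markers.

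The genes that TRIM proteins act with or on in these routes were described from a list of 28 sensors, adaptors, kinases, interferon response factors and substrates, of which all 28 were tested. On day 1, 22 of 28 were higher (49.9% of all genes), with a median log2 fold change of 0.18, and 10 were higher at an unadjusted p under 0.05 in edgeR (2.18% of all genes). Without day 1 replicate 3 the median was 0.09 and 20 were higher. On day 3, 13 were higher and 1 lower at an unadjusted p under 0.05 (18.3% of all genes were higher and 1819 of 15494 lower), with a median of 0.37. By edgeR none was called after adjustment on either day. DESeq2 called 5 on day 1 (0.259% of all genes) and 12 on day 3 (9.43% of all genes were higher), all higher. The factor Irf7 had the largest day 1 value of the list, 2.32 ± 0.506, with 60.4, 97.0 and 85.2 CPM on day 0 and 221, 173 and 814 CPM on day 1. Like the 8 TRIM genes it was highest on that day in replicate 3, and the value was 1.29 without that tumor. On day 3 it stood at 560, 579 and 359 CPM, a log2 fold change of 2.63 ± 0.512. The lowest day 1 value was that of the kinase gene Map3k7, at −0.15 ± 0.121, or −0.03 without day 1 replicate 3.

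Tlr3, the endosomal receptor of double-stranded RNA, stood at 17.6, 21.1 and 20.8 CPM on day 0, 29.6, 22.8 and 47.7 CPM on day 1 and 31.6, 37.5 and 30.9 CPM on day 3. The tumors of days 1 and 3 did not overlap those of day 0, and both log2 fold changes were 0.75 ± 0.22. The day 1 value was 0.405 without day 1 replicate 3. RIG-I (Ddx58), which Trim25 is reported to modify, and MDA5 (Ifih1) had day 1 values of 0.81 ± 0.174 and 0.90 ± 0.208. Their day 3 values were 0.50 ± 0.173 and 0.84 ± 0.208. The day 1 value of Ifih1 was 0.58 when day 1 replicate 3 was left out. Their adaptor Mavs had 0.07 ± 0.114 and −0.10 ± 0.114, or 0.14 and −0.01 without the tumors that stood apart. Isg15, the modifier that Trim25 joins to proteins, had 1.94 ± 0.45 on day 1, or 1.17 without day 1 replicate 3, and 1.41 ± 0.444 on day 3. Zc3hav1, an antiviral RNA-binding protein that works with Trim25, had 0.21 ± 0.104 and 0.19 ± 0.104, with all tumors of both days above the untreated ones, and 0.11 on day 1 without day 1 replicate 3. Tab2 and Tab3, on which Trim30a is known to act, had day 3 values of 0.08 ± 0.101 and −0.40 ± 0.172. The cGAS gene, listed in the table as MB21D1, had 0.03 ± 0.211 on day 3. Without day 3 replicate 1 these values were −0.05 for Tab2, −0.30 for Tab3 and 0.27 for MB21D1. The smallest edgeR adjusted p among these genes was 0.641 on day 1 and 0.115 on day 3.

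**Figure D4:**
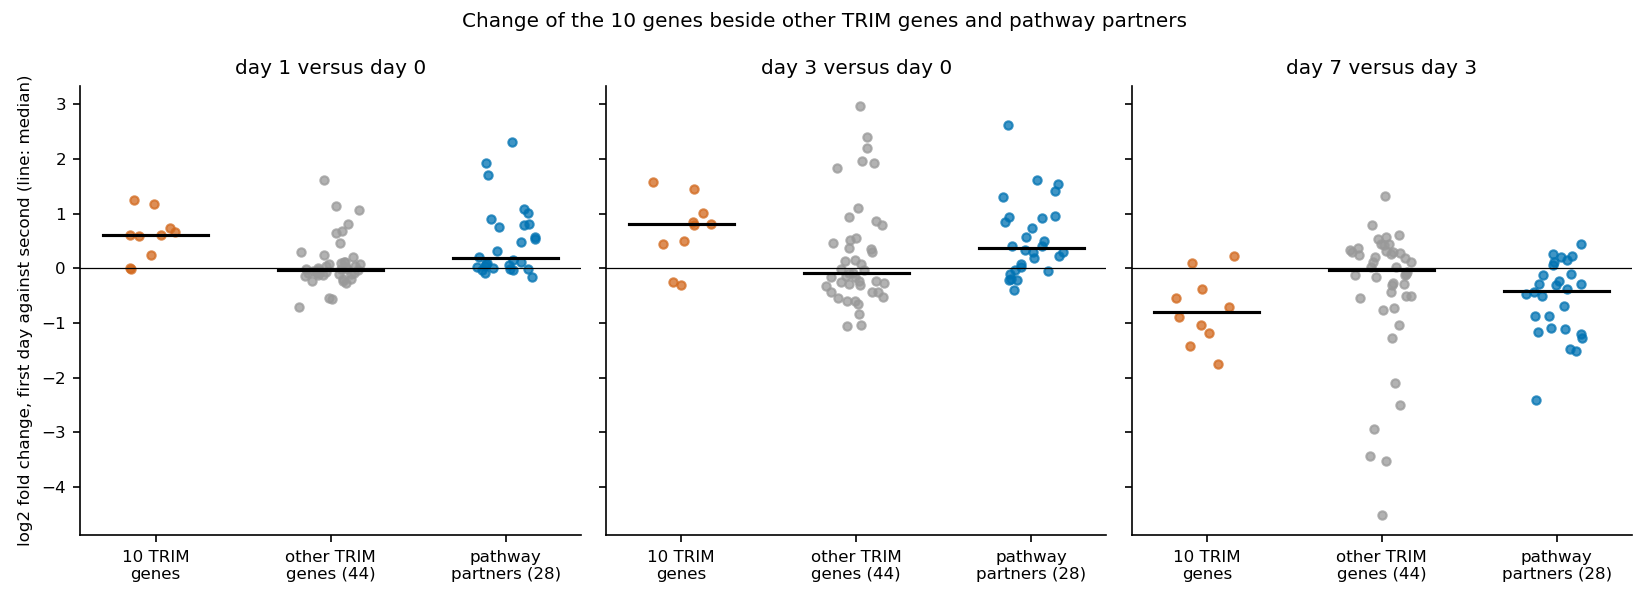
Each point is a gene, in the groups of the 10 genes described here, the 44 other tested TRIM genes and the 28 partner genes, and the line is the median of each group. The vertical axis is the log2 fold change for day 1 and day 3, each relative to the untreated tumors, and for day 7 relative to day 3. The medians of the 10 genes are 0.60, 0.81 and −0.80, and those of the other TRIM genes are −0.02, −0.08 and −0.02.

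Summed markers of immune cells were higher on day 3 than in untreated tumors, as the levels of 8 of the TRIM genes were. The summed level of 4 leukocyte markers (Ptprc, Coro1a, Laptm5 and Cd52) was 350 to 529 CPM on day 0, 342, 432 and 823 CPM on day 1 and 2060, 857 and 820 CPM on day 3. It was 454 to 1000 CPM on day 5 and 250 to 645 CPM on day 7. All 4 markers had higher means on day 3 than on day 0. The 8 TRIM genes were picked out after their values were seen. Their mean log2 CPM was 4.68 to 4.88 on day 0, 5.13, 5.19 and 6.01 on day 1 and 5.85, 5.76 and 5.49 on day 3. On day 1, replicates 1 and 2 had TRIM levels above all untreated tumors with leukocyte sums of 342 and 432 CPM, no higher than the highest untreated tumor. Day 1 replicate 3, with the highest TRIM level of all, had 823 CPM.

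Of 8 macrophage markers 7 were higher on day 3, and their sum was 2470 to 2990 CPM on day 0 and 11200, 4530 and 4700 CPM on day 3. The sum of 7 T cell markers, all 7 higher on day 3, was 29.6 to 42.5 CPM on day 0 and 302, 85.6 and 92.5 CPM on day 3. NK and cytotoxic markers summed to 60.2 to 92.0 CPM on day 0 and 158 to 266 CPM on day 3. Neutrophil markers summed to 25.4 to 39.8 CPM on day 0, 115 CPM in day 1 replicate 3 and 71.4 to 193 CPM on day 3, with Ly6g at 0 in some tumors. Dendritic cell markers summed to 10.8 to 15.7 CPM on day 0 and 16.2 to 68.1 CPM on day 3. Adipocyte markers reached 252 CPM in day 3 replicate 1, with Adipoq, Cfd and Lep at 0 in some tumors. Erythroid markers were 9.49 to 22.0 CPM on day 0 and 29.0 to 221 CPM on day 7. In day 1 replicate 3, the tumor with the highest TRIM level, macrophage markers summed to 4070 CPM (1910 and 2690 CPM in the other day 1 tumors) and T cell markers to 76.9 CPM (23.9 and 23.8 CPM). In the same tumor NK and cytotoxic markers summed to 187 CPM (48.9 and 76.8 CPM) and erythroid markers to 124 CPM (15.3 and 13.6 CPM). The part of these cells in the TRIM differences was not tested, and in bulk tumors more cells of a type and more RNA per cell cannot be told apart.

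**Figure D5:**
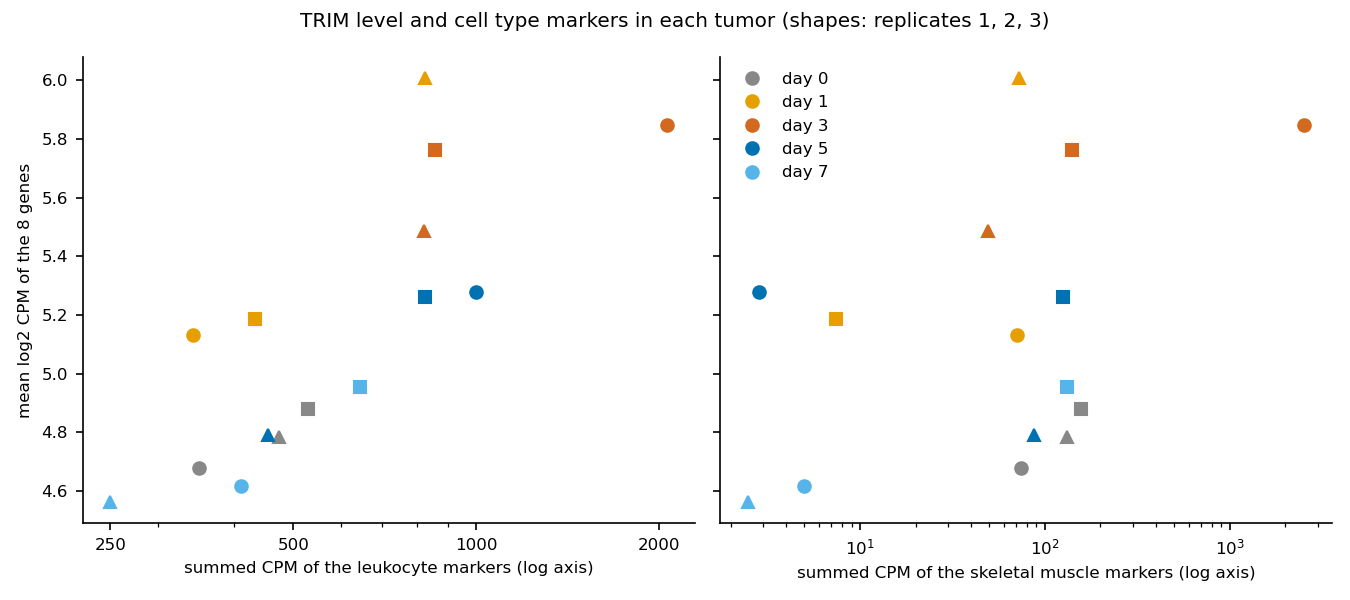
Each point is 1 of the 15 tumors, colored by harvest day and shaped by replicate. The vertical axis is the mean log2 CPM of the 8 genes (all but Trim12a and Trim56), and the horizontal axes are the summed CPM of 4 leukocyte markers (left) and of 7 skeletal muscle markers (right), on log scales. Day 1 replicates 1 and 2 lie at 5.13 and 5.19, above the untreated tumors at similar leukocyte sums, and day 3 replicate 1 stands alone at the right of the muscle panel. The 8 genes were picked out after their values were seen, and the part of the marked cells in their levels was not tested.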

How the data were processed

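The authors sequenced poly(A) RNA of 15 tumors as 100-base single-end Illumina reads. Read quality was checked in FastQC 0.11.3. Transcripts were quantified by kallisto 0.43.0 against GRCm38 (mm10), and tximport gave gene values. The deposited values are estimated counts per gene, whole numbers with 1 column per tumor. The transcript set and the strandedness were not stated. Of 32544 entries, 1 date-like name was left out (at most 0.0268% of counts), and 31401 names matched mouse symbols regardless of case.

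Genes with CPM above 0.366 in at least 3 tumors were fitted together in edgeR 4.0.16 (R 4.3.3) with TMM factors and a term for harvest day. Each comparison used the two-sided quasi-likelihood F test. Calls were made at 0.05 after Benjamini-Hochberg adjustment across the 15494 genes. DESeq2 stands in the software list of the study, without a statement of the test used on these time points. DESeq2 1.42.0, other scalings and filters, a replicate block and left-out tumors were alternatives. Log2 levels used a prior count of 2. The code of the fit was checked on simulated counts that had the same spread for all genes and no tumors standing apart. That check does not show how the fit performs on these tumors. The 10 genes, the partner and marker lists and the rule for naming were chosen with earlier results of these data known. All 10 genes, the paralogs of the chromosome 7 run, the 3 other TRIM genes with the smallest joint p, set partners with those of largest and smallest day 1 value, and the 3 most similar genes per member were named by rule. Ddx58, Ifih1, Mavs, Isg15, Tab2, Tab3 and MB21D1 were named after their values were seen. Within-tumor ratios were compared with exact permutation tests (scipy 1.17.1). Some items under these rules are not reported here.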

Additional observations from a re-analysis of the deposited data

How the results depend on the processing

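Of 1880 recomputed fold changes of the 10 genes, 1817 kept their direction and side of the threshold, 28 were newly called, 25 changed sign within 1 standard error and 10 reversed. Summing Trim12a with Trim12c turned the log2 values of Trim12a to 0.96 on day 3 and 0.39 on day 5 relative to untreated tumors. It also turned them to 0.40 from day 1 to day 3, to −0.56 from day 5 to 7 and to −1.13 from day 3 to 7, because Trim12c dominates the sum. Leaving out a tumor reversed Trim12a between days 3 and 5 (range −0.35 to 0.26, 0.26 without day 3 replicate 2) and Trim25 between days 1 and 3 (−0.30 to 0.07, 0.07 without day 1 replicate 3, and 0.17 also without day 3 replicate 1). For Trim56 the range was −0.295 to 0.073 between days 3 and 5 (0.073 without day 3 replicate 3), and −0.0766 (without day 3 replicate 1) to 0.293 between days 3 and 7.

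Where edgeR called none of the 10 genes, DESeq2 called 7 on day 3 against day 0, 7 between days 3 and 7, and 7 in the joint test. Leaving out a tumor in edgeR gave 0 to 2 calls on day 3 (2 without day 1 replicate 3) and 0 to 6 between days 3 and 7 (6 when day 3 replicate 3 was left out and 2 when day 1 replicate 3 was). The cause was not tested. Shares of all genes are not given for the alternative settings. A change in these counts therefore cannot be told from a change over the whole table. At an unadjusted p under 0.05, 1 gene passed on day 5 with RLE or upper-quartile factors, 2 with DESeq2 and 4 with only the 2 days compared, which gave 1 on day 7. Between days 5 and 7, where 2 had passed, RLE, upper-quartile factors or the replicate block gave 1. Leaving out tumors gave 3 to 7 genes on day 1, 0 to 4 on day 5 and 0 to 1 on day 7. Between successive days it gave 0 to 7, 2 to 6 and 0 to 5. The median log2 value then ranged from 0.36 to 0.73 on day 1 and from 0.025 to 0.44 between days 1 and 3. Without both tumors that stood apart, a setting chosen after seeing the data, the day 1 median was 0.36, and 2 genes were called on day 3 and 2 between days 3 and 7. At an unadjusted p under 0.05 that setting gave 3 on day 1, 4 on day 5, 1 on day 7, 4 between days 1 and 3, and 6 between days 5 and 7.

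Replicate numbers did not pair the tumors. Of 30 same-numbered pairs, 9 had r over 0.1 (−0.619 to 0.511), and 4 of 15 tumors correlated best with their own number. With the replicate block the median was 0.61 on day 1 and 0.81 on day 3, with 0 calls. Both the number of tumors, 3 per day, and depth limit the precision, and Trim12a had only 25 to 74 counts. Scaling to raw totals moved a level by at most 3.29%.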
